A study of Mus musculus with 12 samples.

Results

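The cytosolic ribosome carries the cell's protein synthesis, and the genes for its protein subunits were followed here across 4 kinds of mouse liver sample. They were chosen by name alone: an entry of the expression tables belonged when its whole name was Rpl or Rps with a number, Rplp with a number, or Rpsa. Names marked -ps as pseudogenes and S6 kinases were left out. The rule gave 81 genes of the 24553 entries in each table, 49 for the large subunit with its stalk and 32 for the small subunit. Among them is Rps4l, which is annotated as a transcribed processed pseudogene. The measure is the FPKM value that the authors deposited, a fragment count corrected for both transcript length and the size of the library, so levels of different genes can be compared.

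The 12 libraries fall into 4 groups of 3. KO tumors are liver tumors of mice labelled Setd2 knockout, and WT tumors are liver tumors of wild-type mice. Both followed 1 intraperitoneal dose of the liver carcinogen diethylnitrosamine (DEN) at 25 mg/kg, given to male mice at 2 weeks of age and followed by 8 months of normal feeding. KO livers and WT livers are normal liver of male mice aged 8 months that received no DEN. Titles write cKO for the mutant, but the labels name neither the promoter that drives the deletion nor the cells that carry it. Setd2 encodes the enzyme that adds the trimethyl mark to lysine 36 of histone H3 over transcribed genes. Tumor and normal liver differ both in tissue and in DEN exposure, which cannot be told apart, and the labels do not say outright that each library is a separate animal, so a p-value here reflects the spread of these libraries, which may be technical.

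A ribosome is built in the nucleolus from ribosomal RNA and a single copy of nearly every ribosomal protein. The genes for these proteins are among the most transcribed in any cell, and their mRNAs begin with a run of pyrimidines through which mTOR signaling sets their translation. Myc raises their transcription in growing cells. Free ribosomal proteins that are not built into subunits, above all RPL5 and RPL11 bound to the 5S RNA, can inhibit MDM2 and thereby stabilize p53. In liver, both regeneration and tumor growth call on new ribosomes.

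Setd2 itself was listed at 3.14, 2.18 and 1.90 FPKM in KO tumors and 4.40, 3.61 and 4.07 FPKM in WT tumors. In normal liver it was listed at 1.66, 1.93 and 1.32 FPKM in KO livers and 4.84, 3.84 and 4.70 FPKM in WT livers. The groups did not overlap in either tissue, and the log2 difference was -1.05 ± 0.14 (adjusted p = 0.0108) in liver and -0.57 ± 0.19 (adjusted p = 0.188) in tumors, both with limma. FPKM values summed to between 423498 and 719538 per library, and read depth is unknown. Of 8 hepatocyte markers, 7 were present in every library, Apoa1 at 5458 FPKM or more, while albumin (Alb) was listed at 0 in 11 libraries and at 14256 FPKM in KO tumor 2. Since albumin mRNA is abundant in liver, these zeros may be failed estimates, which makes the FPKM sums, the shares of them and the rescaling to a common sum less certain.

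Of the 81 genes, 77 reached 1 FPKM in at least 3 libraries and were tested. They were abundant: 66 averaged over 200 FPKM, 69 over 100 FPKM, and their median average was 360.3 FPKM, against 7.28 FPKM over all 11671 tested entries. Rpl41, which encodes a very small basic protein of the large subunit, had the highest mean, followed by the stalk protein gene Rplp1 and by Rps27. Most members varied little: the highest of the 12 values was more than 2 times the lowest in 12 genes and more than 3 times in 4, and the median of this ratio was 1.66. The 4 widest ratios belonged to Rps4l, Rpl17, Rps27l and Rpl36al.

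The 4 genes that were not tested were listed at or near 0. Rpl29, a large-subunit gene, ranged between 0.0688 and 0.458 FPKM over the 12 libraries. It has 3 pseudogenes named after it, and as with Alb its low values may be failed or split estimates, which was not tested. Rpl3l, the striated-muscle paralog of Rpl3, did not exceed 0.0959 FPKM in any library, and Rpl39l, expressed mainly in testis, was listed at 0 in 11 libraries and at 0.178 FPKM in KO tumor 3. Rpl10l, the testis copy of Rpl10, was listed at 0 in all 12. Markers of skeletal muscle summed to at most 0.38 FPKM and markers of testis germ cells to at most 0.23 FPKM in any library. Entries in which a ribosomal protein gene is joined with small RNA or other genes, such as those of Rpl23, Rpl30 and Rpl13a, were not counted as members. In the GENCODE vM21 annotation, 58 of the 81 genes have at least 1 pseudogene named after them and 1 has 24, so reads of these genes may have been split between copies.

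Summed over the 81 genes, ribosomal protein mRNA reached 24817, 28089 and 34740 FPKM in KO tumors and 28179, 32485 and 28730 FPKM in WT tumors. The sum was 31722, 31121 and 30883 FPKM in KO livers, against 23016, 30268 and 25578 FPKM in WT livers. The 3 KO livers were nearly equal and lay above all 3 WT livers, while the tumor groups overlapped. As means these are 29215 ± 5057 FPKM in KO tumors, 29798 ± 2344 FPKM in WT tumors, 31242 ± 432 FPKM in KO livers and 26287 ± 3678 FPKM in WT livers (SD, n = 3 each).

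As a share of each library's FPKM sum the order changed. The share was 5.86, 5.47 and 5.55% in KO tumors, 5.69, 5.52 and 4.82% in WT tumors, 4.41, 4.76 and 4.33% in KO livers and 3.59, 4.22 and 3.59% in WT livers. Every tumor library lay above every liver library, and each KO liver above each WT liver. The FPKM sums of the tumor libraries, 423498 to 626303, were all below those of the livers, 641848 to 719538, so the share and the plain sum give different orders for tumor against liver. The large-subunit genes summed to between 1.19 and 1.29 times the small-subunit genes in every library, and the mean ratio was 1.24 in both tumor groups and 1.22 in both liver groups.

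**Figure D1:**
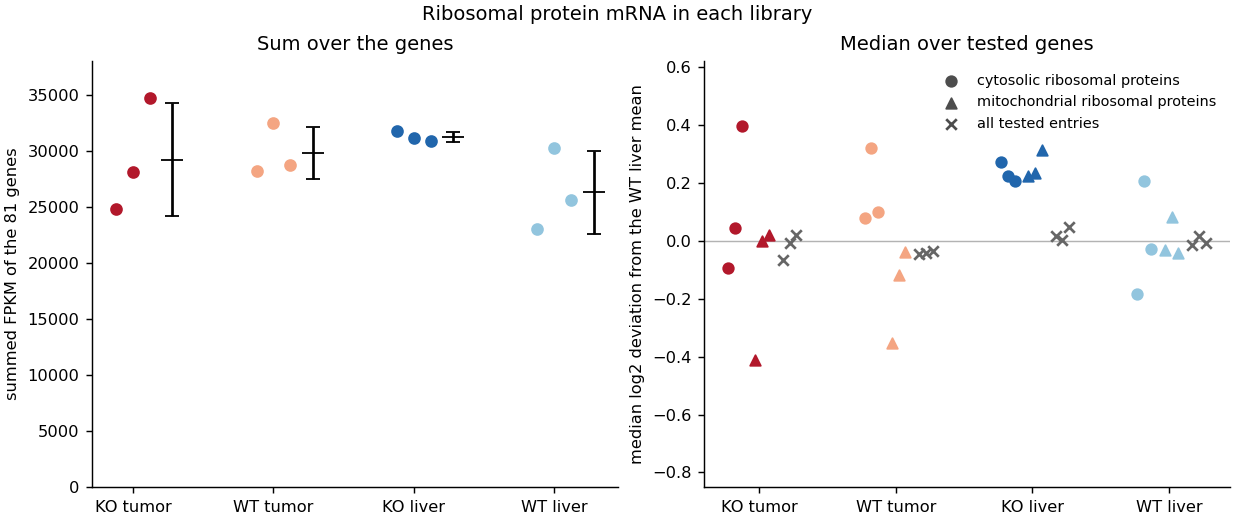
Left, summed FPKM of the 81 genes in each library (points, replicates 1 to 3 from left to right), with the mean and SD of each group beside them. Right, the median log2(FPKM + 1) deviation from the WT liver mean over the 77 tested cytosolic ribosomal protein genes (circles), 74 mitochondrial ribosomal protein genes (triangles) and all tested entries (crosses). The 3 KO livers lie together at 0.21 to 0.27, whereas KO tumors spread between -0.09 and 0.40.

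The members moved as a block between libraries of the same group. In WT liver 2, 76 of the 77 tested genes lay above their group mean, and in WT liver 1 only 2 did. In KO tumor 3, 72 lay above it and in KO tumor 1, 7, while WT tumor 2 had 71 above it. The KO livers were even, with 49, 36 and 35 genes above their group mean. The median SD of a member within a group, on the log2(FPKM + 1) scale, was 0.29 in KO tumors, 0.16 in WT tumors, 0.11 in KO livers and 0.21 in WT livers, against 0.31, 0.19, 0.17 and 0.16 for all tested entries in the same groups. These libraries decide several of the counts given further on. The deviation of all genes with a known transcript length also followed that length in some libraries: Spearman's rho, across genes and with no test, was 0.32 in KO tumor 1, -0.22 in KO tumor 3 and -0.25 in WT liver 2.

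**Figure D2:**
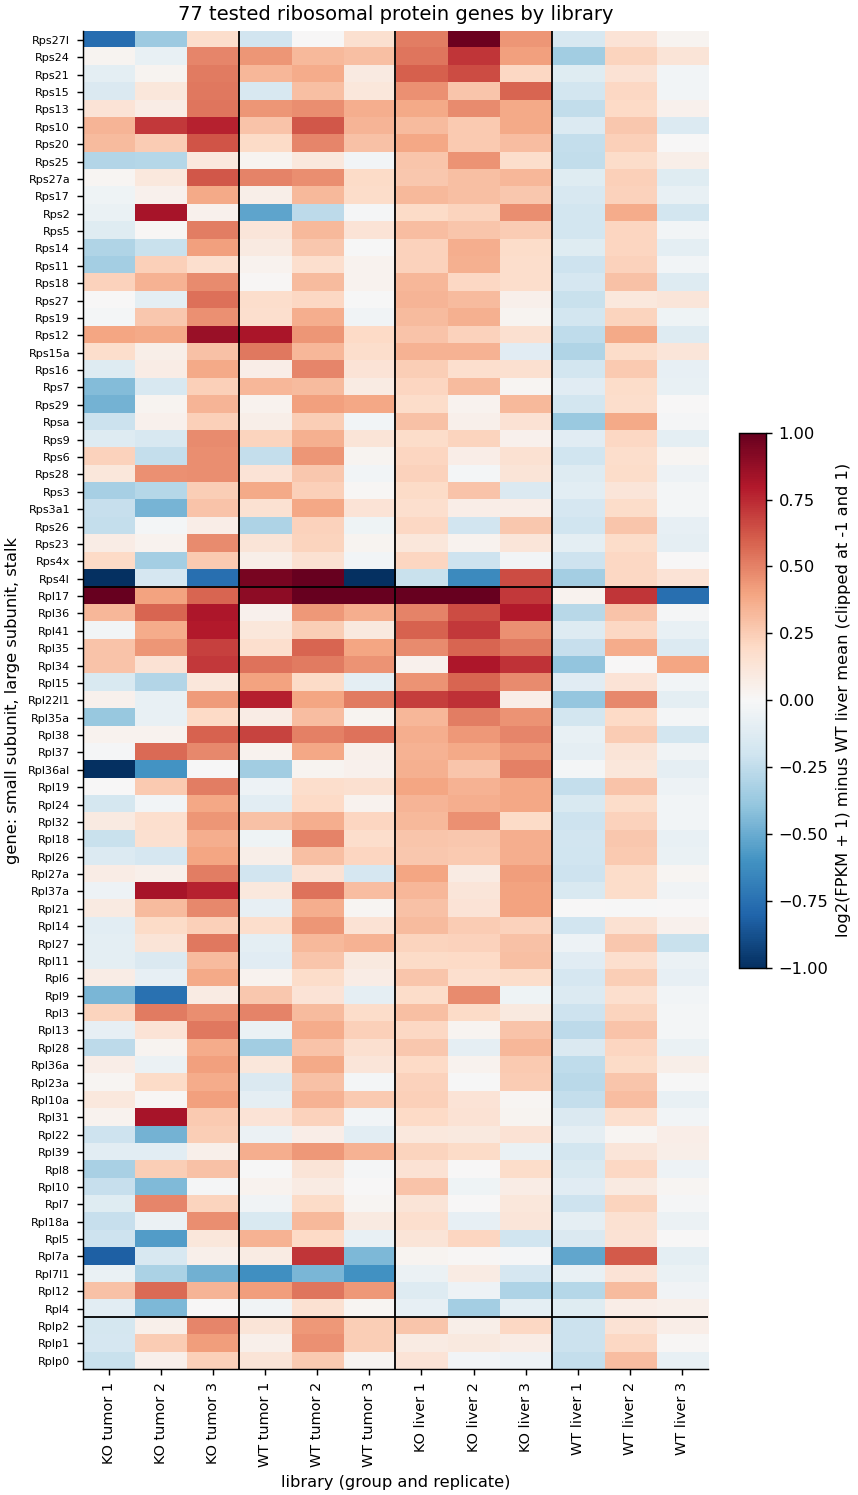
Each row is 1 of the 77 tested genes, ordered within small subunit, large subunit and stalk by the KO liver mean, and each column is 1 library. Color gives log2(FPKM + 1) minus the mean of the 3 WT livers, red above and blue below it, clipped at -1 and 1. Columns are largely of 1 color, with WT liver 1 blue in nearly all rows and the KO livers red in most.

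In normal liver, ribosomal protein genes were mostly higher in Setd2 knockouts, by small amounts. The log2 difference, KO livers minus WT livers on the log2(FPKM + 1) scale, was positive for 72 of the 77 genes with a median of 0.23, against 0.03 over all tested entries. With limma, 5 genes rose and 0 fell (Benjamini-Hochberg adjusted p below 0.05 over all 11671 entries). Among all entries 18.1% were called in either direction, 9.33% as higher and 8.77% as lower, against 6.49% of the members, so the members' share of calls was below the background. In 25 members each KO liver exceeded each WT liver, where 21.9% of all entries did so, and in 0 members was each KO liver the lower, where 20.7% of all entries were. By class, the median was 0.23 for 39 large-subunit genes, 0.23 for 30 small-subunit genes and 0.09 for the 3 stalk genes. It was 0.38 for 5 paralogs kept apart from these classes (Rpl22l1, Rps27l, Rpl36al, Rpl7l1 and Rps4l).

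Rpl36, a large-subunit protein gene on chromosome 17, 56613416 to 56614243, plus strand (GRCm38), was listed at 485, 541 and 595 FPKM in KO livers and 284, 419 and 341 FPKM in WT livers. Rpl36 has 8 named pseudogenes. The groups did not overlap, and the log2 difference was 0.65 ± 0.17 (adjusted p = 0.0413). Rps27l, a close paralog of the small-subunit gene Rps27 and in human cells a p53 target, had 392, 544 and 373 FPKM in KO livers and 245, 301 and 280.2 FPKM in WT livers. KO liver 2 was the highest by a wide margin, and the difference was 0.65 ± 0.17 (adjusted p = 0.0435).

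Rpl41 had 1463, 1582 and 1329 FPKM in KO livers, against 888, 1116 and 919 FPKM in WT livers, a difference of 0.59 ± 0.14 (adjusted p = 0.0357). Rpl15, a large-subunit gene with 5 named pseudogenes, had 65.3, 71.6 and 66.4 FPKM in KO livers, against 44.0, 52.3 and 46.7 FPKM in WT livers. The KO livers all lay above the WT livers, with a difference of 0.50 ± 0.11 (adjusted p = 0.0277). Rpl37 had 218, 222 and 231 FPKM in KO livers, against 161, 187 and 167 FPKM in WT livers, a difference of 0.38 ± 0.11 (adjusted p = 0.047). In each of these 5 genes the 3 KO livers lay above the 3 WT livers. In none of them did all KO tumors lie above all WT tumors, as the plot of 9 genes by library shows.

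These calls stood close to the threshold. The number of members called was 0 when all 12 libraries were fitted together, 1 with no filter on low FPKM (Rpl15), 3 when each library was rescaled to a common sum (Rpl15, Rpl36 and Rpl41), and between 0 and 3 when 1 library was left out, whichever of the 6 it was. Without WT liver 1, the library in which nearly all members were low, 65 of 77 differences were positive, their median was 0.14 and 0 genes were called. Without WT liver 2 the median was 0.33, and Rpl17, Rpl35 and Rpl36 were called.

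**Figure D3:**
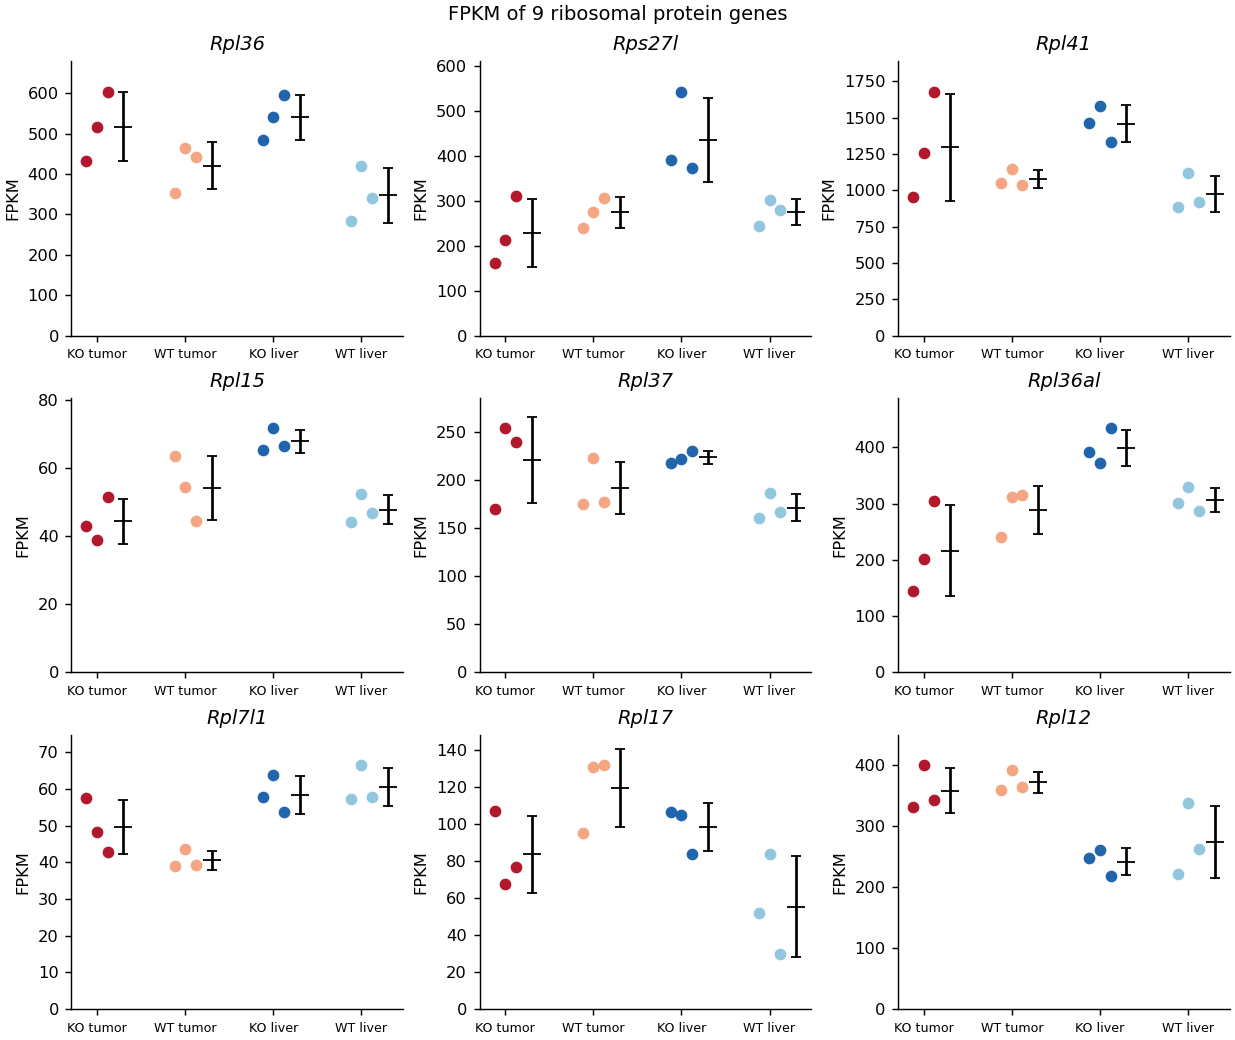
FPKM of 9 ribosomal protein genes in each library (points, replicates 1 to 3 from left to right) with the mean and SD of each group of 3 beside them, on linear axes from 0. Rpl36, Rps27l, Rpl41, Rpl15 and Rpl37 were called higher in KO livers than in WT livers, and Rpl7l1 was called lower in WT tumors than in WT livers. Rpl36al, Rpl17 and Rpl12 were not called in any comparison of 2 groups.

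Transcript length went with these differences. Ribosomal protein mRNAs are short: the longest annotated transcript had a median of 1106 bases over the tested members, 1923 bases over 74 mitochondrial ribosomal protein genes and 3228 bases over all tested entries. That transcript need not be the one expressed in these samples, and in Rps15a it had 5179 bases. The length classes and the removal of the length trend both use it. Of the 77 members, 59 fell into the shortest of 5 equal classes of all genes, those of up to 1862 bases. In the comparison of KO livers with WT livers, genes of this class had a median log2 difference of 0.25, and the median declined class by class to -0.16 in the longest, with a Spearman's rho of -0.33 across 10540 genes that are not independent replicates. After this trend was removed with loess, the members' median was -0.01, 38 of 77 differences were positive and 0 were called, with 6 at an unadjusted p below 0.05. The members' median of 0.23 stood beside 0.25 for the shortest class, and the part of length in the members' differences was not tested further.

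**Figure D4:**
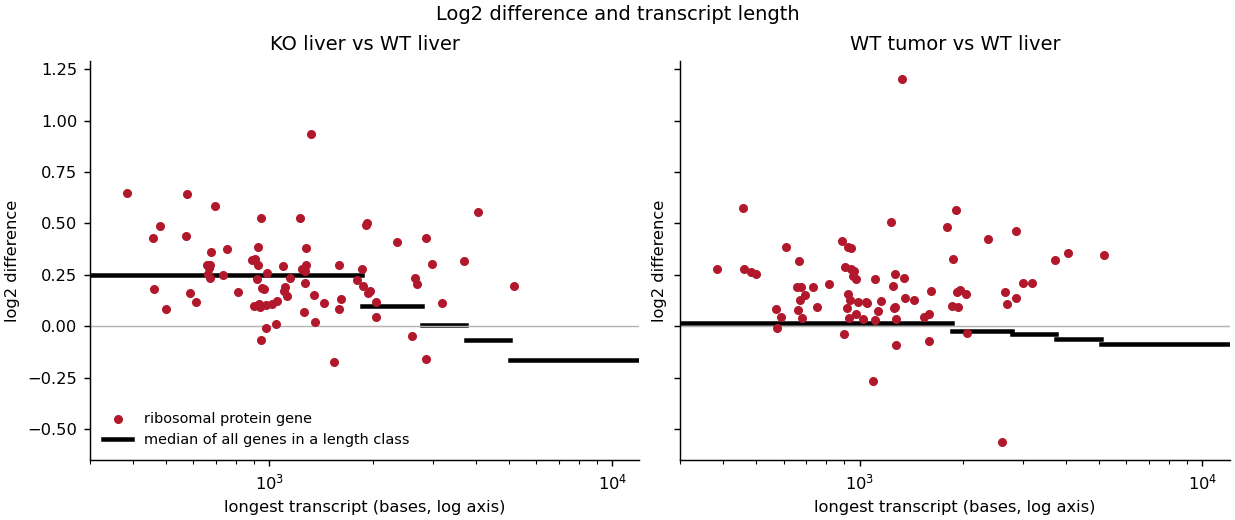
Log2 difference against the longest annotated transcript (bases, log axis) for the 77 tested genes (points), with the median of all genes in each of 5 equal length classes (black bars). In KO livers against WT livers the bars decline between 0.25 and -0.16, and the ribosomal protein genes scatter around the first of them. In WT tumors against WT livers the bars run between 0.01 and -0.09, and most of the points lie above them.

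Other members differed as much without passing the test. Rpl17 had the largest difference in liver, 0.93 ± 0.34 (adjusted p = 0.0926), with 106, 105 and 83.5 FPKM in KO livers and 52.1, 83.8 and 29.6 FPKM in WT livers. WT liver 2 reached the KO range and WT liver 3 was the lowest library of all 12, and Rpl17 has 11 named pseudogenes. Rps24, whose mutations cause Diamond-Blackfan anemia in people, differed by 0.55 ± 0.17 (adjusted p = 0.0658), and Rpl36al by 0.38 ± 0.12 (adjusted p = 0.0602). Rpl4 and Rpl12 gave the most negative differences, -0.17 and -0.16, with adjusted p-values of 0.348 and 0.52. Rpl4 binds ribosomal RNA around the exit tunnel and Rpl12 lies at the base of the stalk.

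Promoters of ribosomal protein genes are known for binding sites of ETS factors such as GABP and for pyrimidine-rich start sites. RefSeq promoter windows on GRCm38.p6, 250 bases before to 50 after the annotated start, were available for 62 of the 81 genes, some with more than 1 start, giving 74 windows. Motifs were searched on both strands, and none of the 4 motifs spelled out here contains another, although their ends can overlap. The ETS core CCGGAAG was present in 36.5% of the members' windows, in 34.7% of 75 windows of mitochondrial ribosomal protein genes and in 8.86% of all 32851 windows. CTCTTT was present in 44.6% of the members' windows, 18.7% of the mitochondrial ones and 23% of all windows. In the same order, GGGCGG was present in 59.5%, 52.0% and 35.7%, and TATAAA in 9.46%, 6.67% and 13.6%. The other motif searched, a palindrome around CGCG, was present in 9.46% of the members' windows, 1.33% of the mitochondrial ones and 0.466% of all windows. A match is a description of the letters and not a measured binding site.

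The 6 windows printed here were taken because they belong to a gene called in liver or in WT tumors (Rpl37, Rps27l, Rpl7l1) or form paralog pairs whose levels parted (Rps27l with Rps27, Rpl36al with Rpl36a). Each runs from 120 bases before the annotated start to 10 bases past it, 5′ to 3′, as RefSeq gives it on GRCm38.p6, with the ETS core CCGGAAG in capitals.
Rpl37 (chr15:5116493-5116622, plus strand): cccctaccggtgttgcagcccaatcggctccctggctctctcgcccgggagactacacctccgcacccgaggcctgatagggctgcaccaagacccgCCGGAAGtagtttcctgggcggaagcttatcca
Rps27l (chr9:66945966-66946095, plus strand): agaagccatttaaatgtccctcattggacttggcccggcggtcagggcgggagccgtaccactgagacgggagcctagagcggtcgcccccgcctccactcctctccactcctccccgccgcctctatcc
Rps27 (chr3:90213639-90213768, minus strand): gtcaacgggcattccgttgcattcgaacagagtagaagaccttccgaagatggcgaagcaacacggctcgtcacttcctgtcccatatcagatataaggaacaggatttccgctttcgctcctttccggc
Rpl36al (chr12:69184058-69184187, minus strand): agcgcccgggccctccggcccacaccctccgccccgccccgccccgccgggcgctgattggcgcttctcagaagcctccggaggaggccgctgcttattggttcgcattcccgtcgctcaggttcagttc
Rpl36a (chrX:134585534-134585663, plus strand): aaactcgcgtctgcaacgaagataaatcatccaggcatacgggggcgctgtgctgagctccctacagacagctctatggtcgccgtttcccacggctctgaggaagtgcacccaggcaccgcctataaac
Rpl7l1 (chr17:46782647-46782776, minus strand): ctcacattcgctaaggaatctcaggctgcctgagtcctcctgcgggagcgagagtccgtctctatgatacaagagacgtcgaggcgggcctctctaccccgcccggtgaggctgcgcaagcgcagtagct
In these 130-base stretches the ETS core stood 1 time in Rpl37 and in none of the other five.

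Among the paralog pairs, the copies and their parents differed in level and in how they varied. Rps27l was listed at 161, 214 and 310.2 in KO tumors, 240.0, 276 and 308 in WT tumors, 392, 544 and 373 in KO livers, and 245, 301 and 280.2 in WT livers (FPKM). Rps27, a zinc-finger protein gene of the small subunit, was listed at 642, 599.6 and 940.3 in KO tumors, 724, 740.3 and 640.4 in WT tumors, 809.9, 798 and 665 in KO livers, and 549, 688 and 697 in WT livers (FPKM). The ratio of Rps27l to Rps27 within a library was 0.251, 0.356 and 0.330 in KO tumors, 0.332, 0.372 and 0.480 in WT tumors, 0.483, 0.682 and 0.562 in KO livers, and 0.447, 0.438 and 0.402 in WT livers. All 3 KO livers lay above every other library in this ratio, although WT tumor 3 nearly reached the lowest of them.

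Rpl36al, an autosomal copy of the X-linked gene Rpl36a on chromosome 12, 69182731 to 69184083, minus strand, was listed at 144, 201 and 304 in KO tumors, 240.3, 312 and 315 in WT tumors, 392, 372 and 434 in KO livers, and 301, 330.3 and 288 in WT livers (FPKM). Rpl36a, on chromosome X, 134585654 to 134588062, plus strand, was listed at 260.4, 239 and 331 in KO tumors, 270.1, 324 and 270.3 in WT tumors, 286, 255 and 299 in KO livers, and 209, 285 and 259 in WT livers (FPKM). The ratio of the copy to its parent was 0.552, 0.842 and 0.919 in KO tumors and 0.890, 0.961 and 1.17 in WT tumors. It was 1.37, 1.46 and 1.45 in KO livers, against 1.44, 1.16 and 1.11 in WT livers. The copy exceeded its parent in all 6 livers, whereas in tumors it did so in 1 library of 6.

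Rpl22l1, a paralog that can replace the RNA-binding protein RPL22 in the ribosome, was listed at 98.2, 90.4 and 128 in KO tumors, 164, 126 and 137 in WT tumors, 154, 159 and 99.6 in KO livers, and 72.8, 134 and 89.0 in WT livers (FPKM). Rpl22 was listed at 57.3, 47.5 and 78.9 in KO tumors, 63.6, 69.5 and 61.7 in WT tumors, 71.6, 71.0 and 73.6 in KO livers, and 62.4, 67.2 and 69.6 in WT livers (FPKM). The paralog was above Rpl22 in every library, at ratios between 1.17 and 2.58, and the groups overlapped in this ratio. The difference of Rpl22l1 was 0.49 ± 0.26 (adjusted p = 0.214) between KO livers and WT livers and -0.43 ± 0.22 (adjusted p = 0.366) between KO tumors and WT tumors. In WT tumors against WT livers it was 0.56 ± 0.23 (adjusted p = 0.132).

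Rpl7l1, whose yeast relative is an assembly factor of the large subunit, was listed at 57.4, 48.2 and 42.9 in KO tumors, 39.0, 43.6 and 39.2 in WT tumors, 57.9, 63.8 and 53.6 in KO livers, and 57.2, 66.5 and 57.7 in WT livers (FPKM). Rpl7 was listed at 415, 633 and 526 in KO tumors, 440.1, 517 and 457 in WT tumors, 492, 454 and 489 in KO livers, and 391, 526 and 447 in WT livers (FPKM), so that the paralog stood at 0.0761 to 0.146 of Rpl7. Rps4l, which GENCODE vM21 annotates as a transcribed processed pseudogene, was listed at 3.65, 12.5 and 7.99 in KO tumors, 28.4, 29.4 and 5.97 in WT tumors, 12, 8.74 and 22.8 in KO livers, and 11, 16.5 and 15.7 in WT livers (FPKM). This was the most variable member, with a coefficient of variation of 57.7% over the 12 libraries. Rps4x, its X-linked parent, was listed at 476, 328 and 496 in KO tumors, 431, 459.8 and 407 in WT tumors, 481, 359 and 407 in KO livers, and 359, 478 and 415 in WT livers (FPKM).

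Of the pairs whose paralog was near 0, Rpl3 was listed at 203, 249 and 241 in KO tumors, 245, 216 and 197 in WT tumors, 215, 198 and 186 in KO livers, and 151, 203 and 172 in WT livers (FPKM). Rpl10, which takes part in the joining of subunits, was listed at 417, 359 and 485 in KO tumors, 501, 518 and 490.0 in WT tumors, 598, 476 and 514 in KO livers, and 451, 522 and 497 in WT livers (FPKM). Rpl39, a small protein gene of the exit tunnel, was listed at 325, 324 and 361 in KO tumors, 451, 473 and 446 in WT tumors, 409, 399.8 and 334 in KO livers, and 308, 381 and 364 in WT livers (FPKM). In KO tumors Rpl10 and Rpl39 lay below all WT tumors, and none of the 3 genes was called in any comparison.

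Rpl5 and Rpl11, the members of the nucleolar stress route, were not called in any comparison. Rpl5 was listed at 124, 96.5 and 155 in KO tumors, 182, 164 and 135 in WT tumors, 156, 165 and 124 in KO livers, and 129, 158 and 143 in WT livers (FPKM). Rpl11 was listed at 412, 398 and 547 in KO tumors, 406, 533 and 472 in WT tumors, 502, 505 and 543 in KO livers, and 407, 495 and 422 in WT livers (FPKM). Both bind MDM2 together with the 5S RNA, and their smallest adjusted p was 0.203 for Rpl11 in KO livers against WT livers.

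Rps6, the classical substrate of S6 kinase, was listed at 235, 169.6 and 277 in KO tumors, 169.8, 272 and 204 in WT tumors, 233, 210.2 and 223 in KO livers, and 175, 227 and 203 in WT livers (FPKM). Rplp0, the base of the acidic stalk and a common reference gene in PCR, was listed at 340.2, 409.5 and 468 in KO tumors, 432, 476 and 403 in WT tumors, 436, 389 and 383 in KO livers, and 335, 491 and 377 in WT livers (FPKM). The difference of Rplp0 was 0.02 ± 0.16 (adjusted p = 0.933) between KO livers and WT livers and -0.12 ± 0.23 (adjusted p = 0.836) between KO tumors and WT tumors, close to 0 beside its error. Rpsa, a small-subunit protein also known as the laminin receptor, was listed at 357, 427 and 490.0 in KO tumors, 432, 492 and 407 in WT tumors, 508, 429 and 459 in KO livers, and 321, 538 and 412 in WT livers (FPKM). Rps27a, which encodes a fusion with ubiquitin, was listed at 331, 352 and 504 in KO tumors, 460.5, 451 and 374 in WT tumors, 394, 403 and 411 in KO livers, and 301, 386 and 300.3 in WT livers (FPKM). Rps19, the gene most often mutated in Diamond-Blackfan anemia in people, was listed at 202, 247 and 281 in KO tumors, 229.8, 264 and 199 in WT tumors, 255, 262 and 208 in KO livers, and 180.1, 239 and 199 in WT livers (FPKM). None of these 5 genes was called in any comparison, and only Rps27a was separated in liver, where its KO libraries all lay above the WT libraries.

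Between KO tumors and WT tumors, none of the ribosomal protein genes passed the test. The members' median SD was 0.29 in KO tumors and 0.16 in WT tumors, against 0.31 and 0.19 for all tested entries. With limma, 0 of 77 genes were called and 0 had an unadjusted p below 0.05, in a comparison in which 0.0771% of all entries were called, 0.0343% as higher and 0.0428% as lower, and 2058 had an unadjusted p below 0.05. The median difference was -0.06 over the members, against 0.02 over all entries, and 30 of 77 were positive. Rpl39 (-0.44 ± 0.20, adjusted p = 0.326) and Rpl10 (-0.27 ± 0.23, adjusted p = 0.584) were lower in all 3 KO tumors than in any WT tumor, and 0 members were higher in all 3, where 10.1% and 13.8% of all entries were. Rps2, which lies at the entry of the mRNA channel, gave the largest positive difference, 0.53 ± 0.31 (adjusted p = 0.423), with 276, 512 and 298 FPKM in KO tumors and 200.5, 240.5 and 286 FPKM in WT tumors. Rps2 has 11 named pseudogenes. KO tumor 2 stood far above the other KO tumors, and without it the difference was 0.26. Rescaling each library to a common sum turned the members' median to 0.06 while the median of all entries moved to 0.12, so the members' sign depends on the scale. It also depends on single libraries: the median was 0.02 without KO tumor 1, 0.01 without WT tumor 2, -0.20 without KO tumor 3, -0.11 without WT tumor 1 and -0.03 without KO tumor 2. With the length trend removed it was -0.12. In the same comparison, 10 macrophage markers summed to 590 to 804 FPKM in KO tumors and 169 to 504 FPKM in WT tumors, and 10 stellate cell and fibroblast markers to 189 to 280 FPKM in KO tumors and 70.1 to 87.9 FPKM in WT tumors. None of these markers was at 0 and 0 were called. The 7 hepatocyte markers other than Alb summed to 11324 to 20677 FPKM in KO tumors and 28098 to 39290 FPKM in WT tumors, with KO tumor 2 the lowest. In such tissue, fewer cells of a type and less RNA per cell cannot be told apart, and the part of these cells in the members' values was not tested.

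In WT tumors against WT livers, most ribosomal protein genes were slightly higher and 1 was called lower. The difference was positive in 70 of 77 genes, with a median of 0.16, against -0.04 over all entries. The median was 0.08 without WT liver 1, 0.28 without WT liver 2 and 0.09 without WT tumor 2, and 0.09 with the length trend removed. Rpl7l1 fell: it had 39.0, 43.6 and 39.2 FPKM in WT tumors, against 57.2, 66.5 and 57.7 FPKM in WT livers, a difference of -0.56 ± 0.12 (adjusted p = 0.021). No member rose, with 10 at an unadjusted p below 0.05, where 17% of all entries were called, 8.01% as higher and 8.96% as lower. Rpl38, Rpl17, Rpl39, Rpl12, Rpl34, Rps10, Rps13 and Rps24 lay above all WT livers in all 3 WT tumors and Rpl7l1 lay below, where 18.5% and 23.8% of all entries did.

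Rpl38 came nearest to a rise, with 679, 604 and 620.1 FPKM in WT tumors and 404, 506 and 374 FPKM in WT livers and a difference of 0.58 ± 0.16 (adjusted p = 0.0501). In mice, RPL38 is known for its role in translating Hox mRNAs. Rpl17 had 94.9, 131 and 132 FPKM in WT tumors and 52.1, 83.8 and 29.6 FPKM in WT livers, a difference of 1.20 ± 0.35 (adjusted p = 0.0576). Rpl12 had 359.6, 392 and 365 FPKM in WT tumors and 221, 337 and 263 FPKM in WT livers, a difference of 0.46 ± 0.18 (adjusted p = 0.11).

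The 2 common-sum scalings changed this comparison, whereas median-of-ratios scaling left it near the deposited scale. With median-of-ratios scaling 1 member was called higher and 1 lower, and the members' median was 0.20. The common sums rest on FPKM sums that are less certain, since Alb was mostly listed at 0. With each library rescaled to a common sum, the median of all entries moved to 0.21 and that of the members to 0.47. On that scale 26 members were higher and 0 lower, 33.8% of the members, while 13.8% of all entries were called higher. The split of all calls moved along, with 1607 higher and 400 lower entries, against 935 higher and 1046 lower on the deposited scale. With the common sum taken over entries outside the members, 30 members were higher and 0 lower. Rpl7l1 was called lower under neither, and on the deposited scale its adjusted p was 0.0659 without WT liver 2, 0.0698 without WT liver 3 and 0.0606 without WT tumor 3. Without WT liver 2, Rpl17 was called higher. Markers of cycling cells stood at 47.1 to 51.7 FPKM in WT tumors and 24.9 to 26.0 FPKM in WT livers as a sum over 8 genes, 7 of which rose, and none of which was at 0 in these groups. B and plasma cell markers summed to 28.3 to 63.4 FPKM in WT tumors and 2.84 to 5.72 FPKM in WT livers over 6 genes, of which 3 of 4 tested rose. Among these, Ms4a1 was listed at 0 in 2 WT livers. Stellate cell and fibroblast markers summed to 70.1 to 87.9 FPKM in WT tumors and 47.2 to 74.0 FPKM in WT livers, with 3 of 10 higher. Cholangiocyte markers summed to 63.7 to 640 FPKM in WT tumors and 35.9 to 129 FPKM in WT livers, with 1 of 5 tested higher. The 7 hepatocyte markers other than Alb summed to 28098 to 39290 FPKM in WT tumors and 19523 to 22130 FPKM in WT livers. Of these 7, 1 was called higher and 2 lower. The part of these cells in the members' values was not tested.

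In KO tumors against KO livers, 0 of 77 genes were called with limma and 4 had an unadjusted p below 0.05, in a comparison in which 14.3% of all entries were called, 9.09% as higher and 5.17% as lower. The median was -0.12, against -0.02 over all entries, and 20 of 77 were positive. With the length trend removed the median was 0.01 and 39 were positive. The median was -0.02 without KO tumor 1, -0.08 without KO tumor 2 and -0.23 without KO tumor 3. Rps27l, with 161, 214 and 310.2 FPKM in KO tumors and 392, 544 and 373 FPKM in KO livers, differed by -0.96 ± 0.31 (adjusted p = 0.0772). Rpl36al, with 144, 201 and 304 FPKM in KO tumors and 392, 372 and 434 FPKM in KO livers, differed by -0.94 ± 0.31 (adjusted p = 0.0785). Rpl15 had 42.8, 38.7 and 51.4 FPKM in KO tumors and 65.3, 71.6 and 66.4 FPKM in KO livers, a difference of -0.61 ± 0.18 (adjusted p = 0.0643). In all of these, each KO tumor lay below each KO liver. Rpl12 ran the other way, with 331, 399.8 and 342 FPKM in KO tumors and 247, 261 and 217 FPKM in KO livers and a difference of 0.56 ± 0.21 (adjusted p = 0.113).

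In total 5 members were lower and 2 (Rpl12 and Rps12) higher in all 3 KO tumors, where 19.8% and 21.3% of all entries were. Without KO tumor 3, the library with the highest ribosomal protein values, Rps27l, Rpl36al and Rpl15 were called lower, at adjusted p-values of 0.0198, 0.0128 and 0.0266. They were 3.9% of the members, in a fit in which 12% of all entries were called lower. With each library rescaled to a common sum, the median of all entries moved to 0.34 and that of the members to 0.32, so the members' sign turned while they stayed level with other genes. Rpl12, Rps10 and Rps12 were then called higher and 0 lower. The split of all calls was 1686 higher and 260 lower, against 1061 higher and 603 lower on the deposited scale. Macrophage markers summed to 590 to 804 FPKM in KO tumors and 253 to 371 FPKM in KO livers, with 6 of 10 higher, and stellate cell and fibroblast markers to 189 to 280 FPKM in KO tumors and 77.5 to 129 FPKM in KO livers, with 5 of 10 higher and none at 0. Cycling cell markers summed to 39.5 to 97.3 FPKM in KO tumors and 25.6 to 26.2 FPKM in KO livers, with 6 of 8 higher and Mki67 listed at 0 in KO liver 2. Cholangiocyte markers summed to 563, 3519.5 and 267 FPKM in KO tumors and 70.1 to 77.6 FPKM in KO livers, with 2 of 5 tested higher. The 7 hepatocyte markers other than Alb summed to 11324 to 20677 FPKM in KO tumors and 19151 to 23244 FPKM in KO livers. Of these hepatocyte markers 0 were called. The part of these cells in the members' values was not tested.

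The KO effect in tumors minus that in liver was fitted on all 12 libraries, and it uses the same libraries as the comparisons above. With limma, 0 of 77 members were called and 10 had an unadjusted p below 0.05, where 2.08% of all entries were called, 1.15% as higher and 0.934% as lower. The difference was negative in 71 members, with a median of -0.31. With the length trend removed it was negative in 48, with a median of -0.09, and on a common sum the median was -0.18. Without 1 library the median ran between -0.19 (without KO tumor 1) and -0.44 (without KO tumor 3), and it was -0.20 without WT tumor 2. Rpl15 had -0.78 ± 0.23 (adjusted p = 0.0853), Rpl17 -1.45 ± 0.45 (adjusted p = 0.102) and Rps27l -0.95 ± 0.35 (adjusted p = 0.142). Without KO tumor 3, 6 members passed with negative values: Rpl15, Rpl36al, Rpl38, Rps13, Rps24 and Rps27l. They were 7.79% of the members, in a fit in which 5.84% of all entries were called higher and 5.88% lower.

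Among genes that build the ribosome, the calls in liver ran the other way. In KO livers against WT livers, 0 of 37 genes for subunit assembly and export rose and 11 fell, with a median of -0.32, and 0 of 37 snoRNP core and nucleolar processing genes rose and 9 fell, with a median of -0.31, where 8.77% of all entries were called lower. Tsr1, a factor of late small-subunit assembly, fell to 4.88, 4.09 and 4.67 FPKM in KO livers, against 9.78, 16.3 and 12.7 FPKM in WT livers, a difference of -1.31 ± 0.19 (adjusted p = 0.0118). Ltv1 (-0.84 ± 0.15, adjusted p = 0.0178) and the helicase gene Ddx21 (-0.90 ± 0.17, adjusted p = 0.019) fell as well. Among nucleolar genes, Nop58, a core protein of box C/D snoRNPs, differed by -1.33 ± 0.32 (adjusted p = 0.0351), Nop2 by -0.83 ± 0.17 (adjusted p = 0.024) and Pdcd11 by -0.66 ± 0.14 (adjusted p = 0.0267). Of 17 genes for RNA polymerase I and its factors, 0 rose and 4 fell, among them the largest subunit Polr1a at -0.69 ± 0.12 (adjusted p = 0.0156) and Polr1b at -0.55 ± 0.13 (adjusted p = 0.032). After removal of the length trend, 10 assembly genes and 6 nucleolar genes were called lower and 0 higher. These counts rest on single libraries: without WT liver 3, 0 assembly, nucleolar, polymerase I or mitochondrial ribosomal protein genes were called, and without KO liver 2, 1 assembly, 0 nucleolar and 1 polymerase I gene were lower. Without WT liver 1, 9 assembly, 6 nucleolar and 3 polymerase I genes were lower.

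Mitochondrial ribosomal protein genes, which encode the ribosome inside mitochondria, were also mostly higher in KO livers, with a median of 0.24. Of 74 genes 15 rose (20.3%, where 9.33% of all entries were called higher) and 0 fell. Mrpl34 had 86.9, 116 and 112 FPKM in KO livers, against 59.7, 55.3 and 56.1 FPKM in WT livers, a difference of 0.85 ± 0.13 (adjusted p = 0.0136), and Mrpl22 (0.60 ± 0.11, adjusted p = 0.0183) and Mrpl49 (0.55 ± 0.11, adjusted p = 0.0208) followed. With the length trend removed 9 were higher and 1 lower, with a median of 0.12, and with each library centred on the median of the cytosolic members 1 was higher and 3 lower. Outside the name rule, Fau, which encodes eS30 fused to a ubiquitin-like protein, rose by 0.58 ± 0.11 (adjusted p = 0.0206). Gnb2l1, which encodes the ribosomal protein RACK1, differed by 0.10 ± 0.15 (adjusted p = 0.668).

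For translation factors the calls were at the background. Of 36 initiation factor genes 0 rose and 3 fell in KO livers (8.33%, where 8.77% of all entries were called lower), led by Eif3a, the scaffold of eIF3, with 25.1, 24.0 and 24.8 FPKM in KO livers and 42.5, 39.6 and 41.9 FPKM in WT livers (-0.72 ± 0.10, adjusted p = 0.0107), and followed by Eif2s3x and the entry of Eif4e. Of 9 elongation factor genes 0 were called, with 2 at an unadjusted p below 0.05. Of 27 genes of mTOR, Myc and TOP mRNA control 2 rose and 2 fell (7.41% each, where 9.33% and 8.77% of all entries were called). The kinase gene Rps6ka1 (1.75 ± 0.26, adjusted p = 0.0125) and Sesn2 were higher, Rps6ka3 and Rictor (-0.76 ± 0.17, adjusted p = 0.0288) lower. Of 8 regulators of the RPL5, RPL11 and p53 route 1 rose (12.5%). This was Hexim1, a binding partner of P-TEFb (1.16 ± 0.28, adjusted p = 0.0348), while Mdm2 differed by -0.07 ± 0.15 (adjusted p = 0.767). In KO livers the markers of stellate cells and fibroblasts summed to 77.5 to 129 FPKM, against 47.2 to 74.0 FPKM in WT livers, with 1 of 10 (Dcn) called higher and none at 0, and their part in these lists was not tested.

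In WT tumors against WT livers, 1 of 37 assembly genes rose (Nap1l1, 0.46) and 8 fell (21.6%). Among those that fell were Sbds (-0.69 ± 0.14, adjusted p = 0.0205), which releases eIF6 from new large subunits, and Riok3 (-0.63 ± 0.12, adjusted p = 0.0191). In the same comparison 8.96% of all entries were called lower. Of 37 snoRNP and nucleolar genes 3 fell (8.11%) and of 74 mitochondrial ribosomal protein genes 6 fell (8.11%), close to that background, and of 17 polymerase I genes 3 fell, while 0 of these lists rose. Of 27 mTOR and Myc control genes 2 rose, Rps6ka1 and Sesn3 (7.41%, where 8.01% of all entries were called higher). Of 36 initiation factors 4 fell (11.1%). These falls depended on the scale: on a common sum, 1 assembly gene and 1 nucleolar gene were higher and 0 lower, 2 mitochondrial ribosomal protein genes were higher and 0 lower, and 1 polymerase I gene was lower. Without WT liver 3, 0 genes of the assembly, nucleolar, initiation and mitochondrial lists were called.

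In KO tumors against KO livers, 5 of 74 mitochondrial ribosomal protein genes fell (6.76%, near the 5.17% of all entries called lower) and 0 rose, with a median of -0.36, among them Mrpl49 (-0.95 ± 0.16, adjusted p = 0.0146). On a common sum, 1 of them was higher and 0 were lower, while without KO tumor 3, 17 were lower and without any one KO liver 0. Polr1a rose (0.66 ± 0.14, adjusted p = 0.0285), Nop10 of the H/ACA snoRNPs fell (-1.29 ± 0.29, adjusted p = 0.0297), and 0 assembly, initiation or elongation genes were called, with 3, 4 and 0 at an unadjusted p below 0.05. Myc was listed at 5.87, 6.21 and 13.2 FPKM in KO tumors and 1.88, 1.31 and 1.09 FPKM in KO livers, a difference of 1.89 ± 0.30 (adjusted p = 0.0145), and Sesn2 and Cdkn2a, a tumor suppressor gene of the p53 route, were also called higher. Of 27 mTOR and Myc control genes 2 were called higher (7.41%), and of 8 regulators of the p53 route 1 (12.5%). Among all entries 9.09% were called higher. Between KO tumors and WT tumors, 0 genes of these lists were called with limma. At an unadjusted p below 0.05 were 3 mitochondrial ribosomal protein, 3 nucleolar, 3 initiation factor, 1 polymerase I and 6 mTOR and Myc control genes and 0 of the assembly list, with adjusted p-values of 0.114 for Polr1a and 0.14 for Eif6, a factor that keeps new large subunits from joining.

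**Figure D5:**
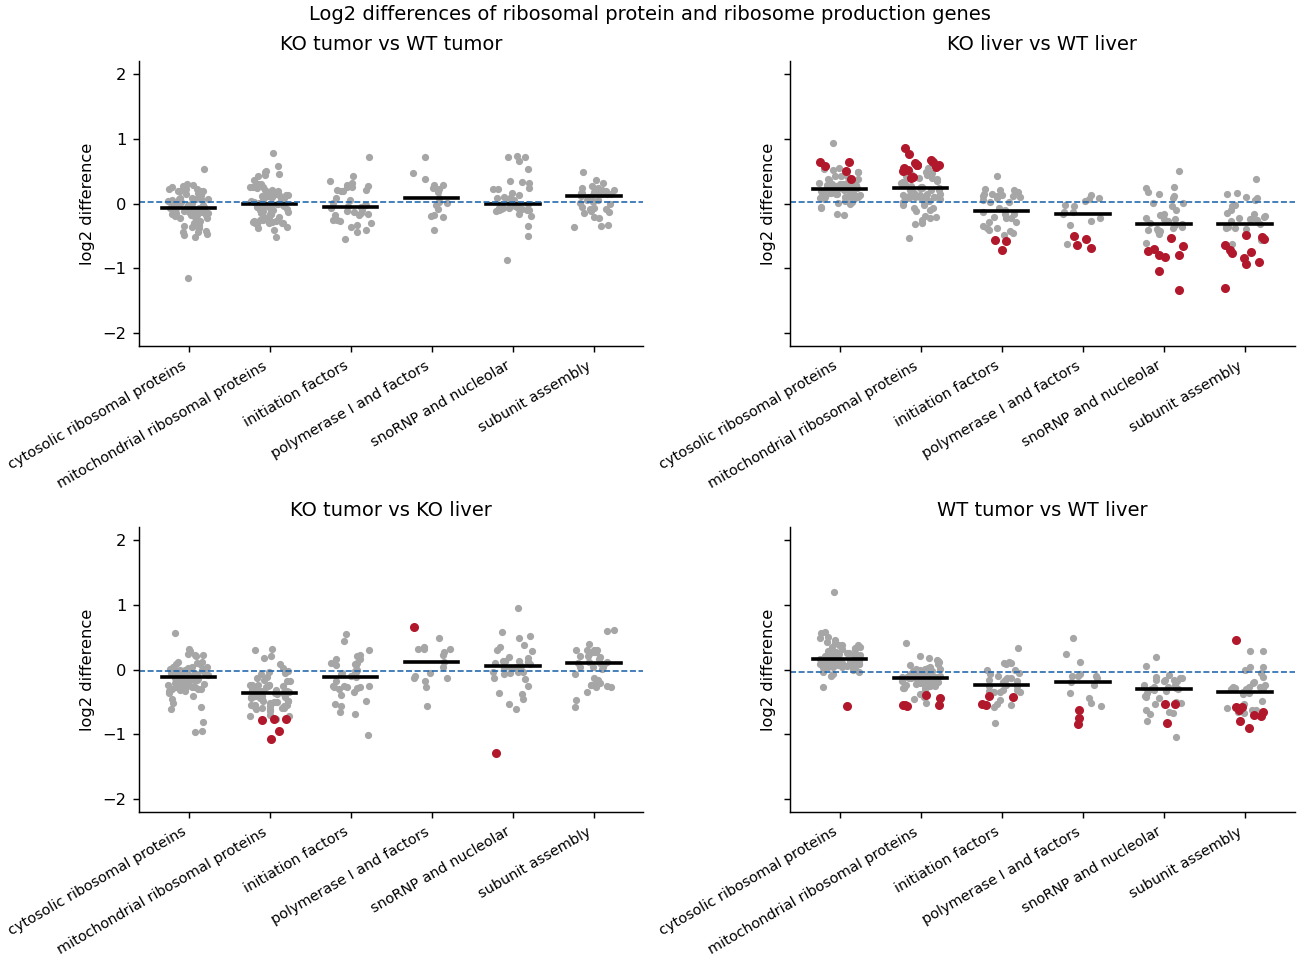
Log2 difference of each tested gene (points, red where called at an adjusted p below 0.05) in cytosolic ribosomal protein genes and 5 related lists, in 4 comparisons, with the list's median as a black bar and the median of all entries as a dashed line. In KO livers against WT livers both kinds of ribosomal protein genes lie above the dashed line, with medians of 0.23 and 0.24, and the assembly and nucleolar lists below it, at -0.32 and -0.31.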

How the data were processed

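Poly(A)-selected, non-directional RNA-seq libraries of mouse liver were analysed from the FPKM tables that the authors deposited, 1 per library. TopHat2 2.1.1, Cufflinks 2.2.1 and the mm10 build are named per the submitters' processing notes. Program options and gene annotation: not given in the sources used here. Reads were not assigned by strand. Read depth is unknown, so no counting interval is given.

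The members and gene lists were chosen with earlier results of these data known. Entries with FPKM of at least 1 in at least 3 of 12 libraries (11671) were tested as log2(FPKM + 1) with limma 3.58.1 in R 4.3.3 (empirical Bayes with trend), each comparison on its own 6 libraries and the difference of KO effects on all 12, with Benjamini-Hochberg adjustment over all entries and a threshold of 0.05. A log2 difference on this scale understates the change of low genes. ± is the standard error for a log2 difference and the SD elsewhere. The scripts were tested on simulated data. By rule, the genes named were paralog pairs, 7 well-known members, up to 4 called members in each direction per comparison, and up to 3 genes with the smallest adjusted p per related list. Rpl37 and the members named without a call (such as Rpl17, Rps24, Rpl38, Rpl12 and Rps2) were chosen after their values were seen. Gene positions and lengths come from GENCODE vM21 on GRCm38, and promoter sequences from RefSeq on GRCm38.p6. Alternatives were other pseudocounts, no filter, common-sum (TPM) and other scalings, removal of a length trend, a replicate block, 1 fit of all libraries and leaving out each library. Centring on the members was chosen after seeing the data. Some items are not reported here.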

Additional observations from a re-analysis of the deposited data

Results flagged for a closer look

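Of the cytosolic ribosomal protein genes, 0 differed in the KO effect between tumor and liver by the limma interaction test, with 10 at an unadjusted p below 0.05, and 0 separated in opposite directions in tumor and liver. Among the related-list genes examined for this, Polr1a and Mrpl49 met both conditions and Eif6 the separation alone. Only part of each related list was examined for separation in opposite directions, so other genes of these lists may also meet that condition. Without 1 library the adjusted p of the interaction ran between 0.00552 and 0.0532 for Polr1a and between 0.0158 and 0.0971 for Mrpl49. Polr1a had 6.74, 6.45 and 6.23 FPKM in KO tumors and 2.82, 4.31 and 3.55 FPKM in WT tumors, but 3.95, 3.36 and 3.88 FPKM in KO livers and 6.70, 6.64 and 6.52 FPKM in WT livers, and the KO effect in tumor minus that in liver was 1.42 ± 0.19 (adjusted p = 0.0146). Mrpl49 had 12.2, 9.97 and 11.6 FPKM in KO tumors and 14.7, 13.1 and 13.9 FPKM in WT tumors, with 21.9, 23.0 and 23.3 FPKM in KO livers and 16.2, 15.2 and 14.1 FPKM in WT livers, and this difference was -0.84 ± 0.17 (adjusted p = 0.0357). Eif6, which keeps new large subunits from joining, had 90.0, 117 and 123 FPKM in KO tumors and 70.6, 63.2 and 64.0 FPKM in WT tumors, with 73.7, 70.3 and 77.8 FPKM in KO livers and 81.3, 126 and 87.5 FPKM in WT livers. Every KO tumor lay above every WT tumor while every KO liver lay below every WT liver, and tumor against liver likewise ran opposite ways in KO and in WT. The difference of the KO effects, 1.10 ± 0.26 (adjusted p = 0.0549), did not pass the threshold. With 3 libraries in a group, no library was examined as an outlier within its group.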

How the results depend on the processing

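Of the named genes followed under the alternatives, no called gene reversed its direction. Some called genes named in the text, among them Nap1l1, Sesn2, Sesn3, Rps6ka3, Cdkn2a and Dcn, were not followed in this way. Medians and calls of lists did change sign with the scale: on a common sum the members' median in KO tumors against KO livers turned positive. The lower calls of mitochondrial genes in both tumor against liver comparisons and of assembly genes in WT tumors were lost on that scale. In KO livers against WT livers, the members called numbered 5, against 6 with median-of-ratios scaling, 1 with no filter, 3 on a common sum (TPM or non-member entries), 0 with the length trend removed, 0 with the replicate block, 0 in 1 fit of all 12 libraries, 0 when centred on the members and 0 to 3 without 1 library. Their median of 0.23 became -0.0109 with the length trend removed and -0.0051 when centred, which sets it near 0 by construction. In WT tumors against WT livers, 1 member was called, against 2 with a pseudocount of 0.1, 26 on TPM, 2 with median-of-ratios scaling, 30 on the non-member sum, 2 with the length trend removed, 2 in 1 fit of all libraries, 2 when centred and 0 to 1 without 1 library, and the median of 0.16 became 0.4662 on TPM, 0.4891 on the non-member sum and -0.0316 when centred. In KO tumors against KO livers, 0 members were called, against 3 on TPM, 4 on the non-member sum, 4 in 1 fit of all libraries, 2 when centred and 0 to 3 without 1 library, and the median became 0.3156 on TPM and 0.3327 on the non-member sum. Members called for the difference of KO effects numbered 0 to 6 without 1 library. Over all entries, calls in KO livers against WT livers numbered 2113, against 153 with the replicate block and 1144 in 1 fit of all libraries, and those in KO tumors against WT tumors 9 and 1017 in that last fit. Without 1 library, calls over all entries ranged between 240 and 1964 for KO livers, 0 and 266 for KO tumors against WT tumors, 454 and 2134 for WT tumors against WT livers, 129 and 2981 for KO tumors against KO livers, and 7 and 1368 for the difference of KO effects. When centred on the members, calls in KO livers split into 337 higher and 2024 lower entries, against 1089 and 1024. Same-numbered libraries did not deviate together in every pair: r was -0.12, 0.02 and -0.28 in liver and 0.35, 0.01 and 0.09 between KO and WT tumors. Deviations within a group of 3 depend on each other, so these values cannot decide whether the numbers pair the samples. The main fits did not treat the numbers as a pairing. Except where a value or the alternative's construction shows it, the cause was not tested.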
